A study of Arabidopsis thaliana with 34 samples.

Results

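VRN2-YFP peaks that lie outside every H3K27me3 region are described here. They are 313 of the 1402 places in the Arabidopsis thaliana genome where a peak of VRN2-YFP was found reproducibly. Overlapping peaks of the 3 deposited VRN2-YFP lists were merged, and a merged peak was kept when at least 2 lists held a peak there. A kept peak counted as outside when it shared no base with a region in any of the 3 deposited H3K27me3 tables, which left 1089 peaks inside. The members were thus chosen by the authors' peak calls and H3K27me3 regions, and the values of both are given below as a description without a test.

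VRN2 (VERNALIZATION 2) is a zinc finger subunit of Polycomb Repressive Complex 2 (PRC2), the enzyme complex that places H3K27me3, a histone mark of silent genes. In Arabidopsis VRN2 is best known for the silencing of the flowering repressor FLC after a long cold period. Its protein is a target of the N-degron pathway, in which the ubiquitin ligase PRT6 marks proteins for destruction when oxygen and nitric oxide are sufficient. PIF4 is a transcription factor that promotes elongation growth in shade and warmth.

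VRN2-YFP was immunoprecipitated with the AB290 antibody from whole seedlings of vrn2-5/pVRN2::VRN2-YFP, in which the transgene is under the VRN2 promoter and the endogenous gene carries vrn2-5. There were 3 immunoprecipitations and 3 inputs, and no immunoprecipitation from plants without the tag was used here. H3K27me3 was mapped in whole seedlings of vrn2-5 and Col-0 (wild type), 3 libraries each with 3 inputs per genotype. Messenger RNA was sequenced from whole seedlings of 4 genotypes (3 libraries each), namely vrn2-5, vrn2-5 prt6-1, prt6-1 and Col-0, and from whole rosettes of vrn2-5 pif4-2 and pif4-2 (2 libraries each). The labels do not say that replicates are separate plantings, so p-values measure the spread between these libraries, and that spread may be technical. Plant age and growth conditions were not found in the labels.

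The depth behind the RNA values differed widely. The 12 seedling libraries held 1208836 to 27853214 recovered reads, and 6 of them held 1208836 to 1786079. The 4 rosette libraries held 15912781 to 26322823 counts. The 2 vrn2-5 pif4-2 libraries stood apart from each other, with a correlation of log counts of 0.754 against 0.983 for the 2 pif4-2 libraries, so rosette results are given with and without each of them. VRN2 was lower in each library that carries vrn2-5 than in its controls, but PRT6 was not lower in libraries labelled prt6-1. Its signal was 49.6, 142 and 93.8 in libraries labelled prt6-1, against 0, 46.0 and 57.7 in Col-0. Hypoxia response genes, whose activators are known to be destroyed through the PRT6 pathway, had positive log2 differences between libraries labelled prt6-1 and Col-0 for all 12 tested, with a median of 3.87, and limma called 8 of them higher at an adjusted p of 0.05. PIF4 had 20.05 to 23.9 FPKM in pif4-2 rosettes, so its level does not check that label.

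Taken over all places, the peaks outside H3K27me3 were found by the 3 lists about equally, and the peaks inside were not. The outside shares mix peaks over genes and peaks far from genes, which the lists held unevenly, as given below. List R1 held 257 of the 313 outside peaks (82.1%), list R2 held 266 (85.0%) and list R3 held 250 (79.9%). Of the 1089 inside peaks, R1 held 90.5%, R2 87.3% and R3 54.0%. All 3 lists held 147 of the outside peaks (47.0%), against 347 of the inside peaks (31.9%). The lists themselves held 2523, 2762 and 4586 peaks.

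Most of the outside peaks were of modest height, with a short tail of tall ones. The fold over background that the authors' peak caller gave, averaged over the lists, had a median of 2.12 and ran between 1.22 and 8.18. The inside peaks had a median of 2.06 and a maximum of 5.21. Widths had a median of 509 bp outside (231 to 3488 bp) and 607 bp inside. Among peaks in all 3 lists, the median fold outside was 2.31 in R1, 2.32 in R2 and 2.33 in R3, while inside it was 2.48, 2.27 and 2.02. The tallest of a peak's 3 folds came from R3 in 63 of 147 outside peaks (42.9%) and in 51 of 347 inside peaks (14.7%). The order of folds between lists was partly shared: over the 147 outside peaks Spearman's rho was 0.64 for R1 and R2, 0.55 for R1 and R3, and 0.37 for R2 and R3. These are correlations across peaks of the same chromatin preparations, not across independent samples.

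**Figure D1:**
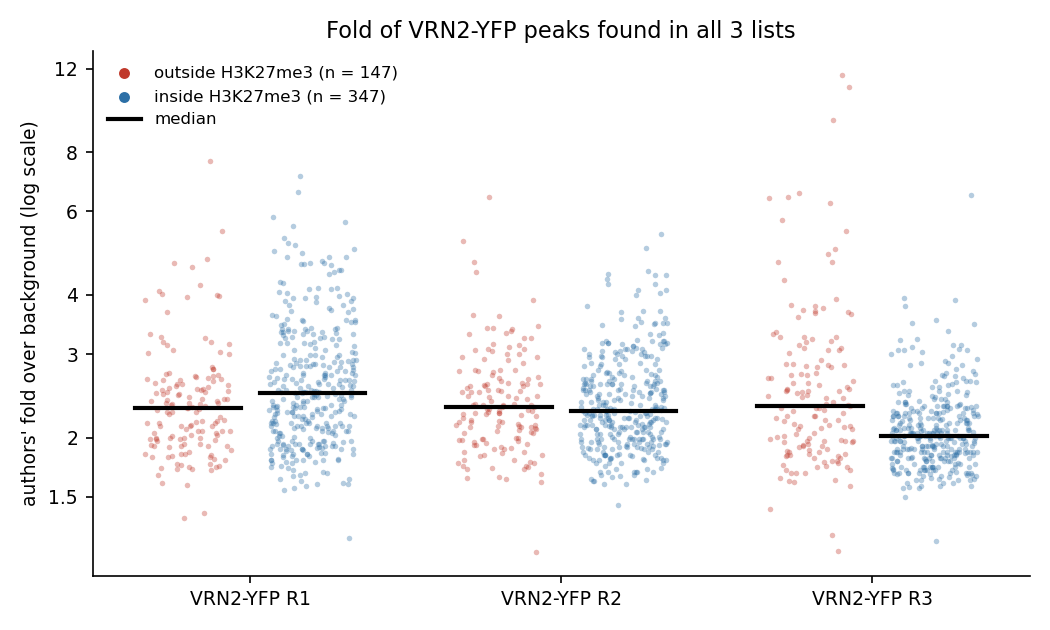
Authors' fold over background (log scale) of each VRN2-YFP peak found in all 3 lists, by list, for 147 peaks outside and 347 peaks inside H3K27me3. Each point is a peak and black bars are medians. The outside medians are level over the lists (2.31, 2.32 and 2.33), the inside medians run from 2.48 in R1 to 2.02 in R3, and the points above 8 in R3 are outside peaks.

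Among outside peaks found in all 3 lists, ranked by mean fold, the tallest lay over AT1G32920, a gene that the files name by its locus only, at chr1:11928882-11929947 (TAIR10, as are all coordinates here). Its fold was 7.67 in R1, 5.20 in R2 and 11.7 in R3, and it covered 86.2% of the gene. The next lay over ERD15, a gene induced early by dehydration, at chr2:17269412-17270798, with folds of 4.76, 4.69 and 10.97. Both were tallest in R3. The fourth in rank crossed the 3′ end of LHCB4.1, which encodes a minor light-harvesting protein of photosystem II, at chr5:210300-210849, with folds of 4.01, 3.41 and 9.37. RAV2, a transcriptional repressor also known as TEM2 that delays flowering, had a peak over 87.4% of its length at chr1:25880416-25882238, with folds of 3.98, 3.44 and 6.44. SAMDC, which encodes an S-adenosylmethionine decarboxylase of polyamine synthesis, had a peak across its 3′ end at chr3:511019-511986, with folds of 4.21, 2.95 and 6.26, and a second peak within the gene with folds of 2.64, 2.49 and 2.51. ERF4, an ethylene response factor with a repressor motif, had folds of 3.96, 2.54 and 4.89 at chr3:5121471-5123051. Peaks at AT3G06330, AT2G20670 and HSPRO2, the last a gene named for its likeness to a nematode resistance protein, completed the gene peaks among the top 15 of these.

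The other 6 of those 15 lay on no listed gene. A pair sat less than 2 kb apart on chromosome 4, at chr4:3054312-3054890 with folds of 4.68, 6.42 and 6.55 and at chr4:3056526-3056970 with folds of 4.57, 4.48 and 4.69, and both were over 60 kb from the nearest listed gene. On chromosome 3 the peak at chr3:13598041-13598749 had folds of 5.45, 3.61 and 6.42. Another, chr3:13853744-13854024, was 281 bp wide with folds of 4.01, 3.24 and 4.31. The last pair, chr3:14223577-14224436 with folds of 3.68, 3.90 and 3.80 and chr3:14190490-14190740 with folds of 4.07, 3.08 and 3.92, lay 1 to 10 kb from a listed gene. Peaks in 2 lists were not ranked with these; chr1:8792573-8792867, named after its values were seen, had a mean fold of 3.85 over R1 and R3.

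Most members lay either over a gene or far from one. Place was read against the 21713 nuclear genes of the rosette table, which gives gene bounds but neither exons nor UTRs and under-represents silent genes. Of the outside peaks, 106 lay over a gene (33.9%), 22 within 1 kb of one (7.03%), 49 at 1 to 10 kb (15.7%) and 136 farther than 10 kb (43.5%). These counts depend on the lists used. Without VRN2-YFP replicate 1 (R1) there were 203 members, 57 over a gene and 109 farther than 10 kb. Without replicate 2 (R2) there were 197, with 69 and 93, and without replicate 3 (R3) 213, with 90 and 91. The inside peaks had 473 over a gene (43.4%), 225 within 1 kb (20.7%), 292 at 1 to 10 kb (26.8%) and 99 farther than 10 kb (9.09%). A gene start lay within 500 bp of the centre of 30 outside peaks (9.58%), against 231 inside peaks (21.2%). Without each VRN2-YFP replicate in turn the outside share was 6.40 to 12.2%. Within 1 kb the counts were 79 (25.2%) outside and 484 (44.4%) inside. These place classes other than the 500 bp and 1 kb distances were chosen after the values were seen.

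The lists held the gene peaks and the far peaks unevenly. Of the 106 outside peaks over a gene, R1 held 97.2%, R2 87.7% and R3 67.0%. Of the 136 peaks farther than 10 kb, R1 held 76.5%, R2 90.4% and R3 89.7%. All 3 lists held 55 of the gene peaks (51.9%) and 77 of the far peaks (56.6%). Inside peaks went the same way by place in R1 and R3, and the other way in R2. R1, R2 and R3 held 95.1%, 92.2% and 41.9% of the inside gene peaks, and 68.7%, 87.9% and 79.8% of the inside far peaks. Among peaks in all 3 lists, R3 was tallest in 24 of 55 outside and 12 of 138 inside gene peaks. For far peaks it was tallest in 32 of 77 outside and 18 of 36 inside.

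**Figure D2:**
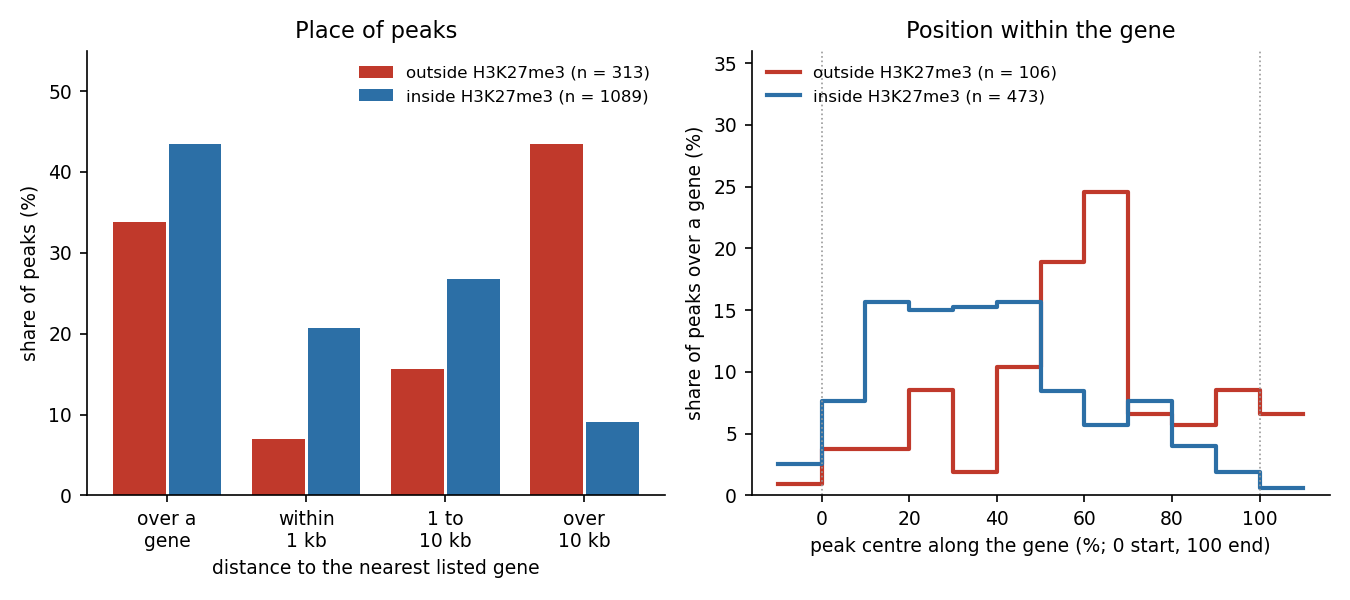
Left, share of VRN2-YFP peaks (%) by distance to the nearest listed gene, for 313 peaks outside and 1089 inside H3K27me3. Right, share of the peaks that lie over a gene (106 outside, 473 inside) by the place of the peak centre along that gene, in steps of 10% of its length from start (0) to end (100), with centres beyond the gene in the end steps. The outside peaks are split between genes (33.9%) and places over 10 kb from a gene (43.5%), and along genes they are most frequent at 60 to 70% of the length (24.5%).

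Outside peaks were frequent where genes are few. Peaks farther than 10 kb from a listed gene tend to such places by definition. The counts of outside peaks below include them, so they partly restate the distance to genes. The chromosomes were divided into 121 bins of 1 Mb with a median of 202 listed gene starts. Of the 121 bins, the 22 with fewer than 100 starts held 159 outside peaks (50.8%) and 152 inside peaks (13.96%). They held 3.74% of the gene starts, a share set by how these bins were picked. The bin at 15 to 16 Mb of chromosome 1 held 20 outside peaks and 9 gene starts. The bins at 13 to 14 Mb of chromosome 3, 3 to 4 Mb of chromosome 4 and 11 to 12 Mb of chromosome 5 held 16 outside peaks each, with 4, 7 and 4 gene starts. In all, 9 bins with 8 or more outside peaks held 122 of the 313, and these bins flank or hold the centromeres of the 5 chromosomes. Centromeric flanks are known to be rich in repeats, and the labels do not say how reads from repeats were placed. The bin limits of 100 and 8 were chosen after the values were seen. Since the rule divided the peaks by H3K27me3, the difference between outside and inside peaks is a description of that division.

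**Figure D3:**
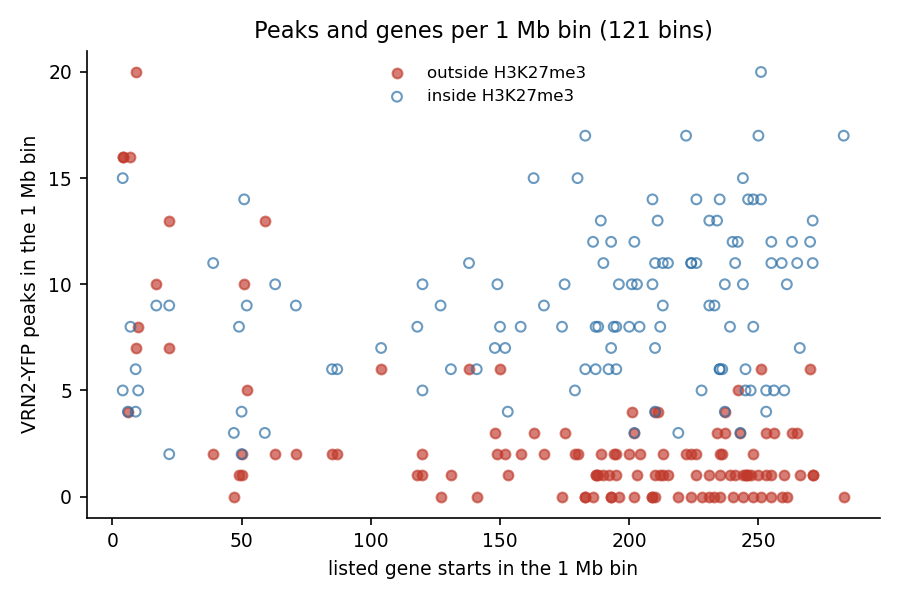
VRN2-YFP peaks against listed gene starts in each of 121 bins of 1 Mb. Filled points count peaks outside H3K27me3 and open points peaks inside. The bins with most outside peaks (20, 16, 16 and 16) have 9 or fewer gene starts, while most bins rich in genes hold fewer outside than inside peaks.

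In R1 and R2 the far peaks had smaller q values than the gene peaks, and in R3 the medians were close. The median −log10 q of the 136 far peaks was 16.6 in R1, 13.03 in R2 and 12.3 in R3, and their median fold was 2.28, 2.18 and 2.17. For the 106 gene peaks the median −log10 q was 8.01, 8.60 and 12.8 with median folds of 2.17, 2.23 and 2.43. A −log10 q above 100 in any list was seen for 30 of the 313 outside peaks (9.58%), 19 of them farther than 10 kb from a gene, against 18 of the 1089 inside peaks (1.65%). The highest was beside AT2G01010, an 18S ribosomal RNA gene at the start of chromosome 2, at chr2:3258-3631, where −log10 q was 1249 in R1, 2196 in R2 and 841 in R3 with folds of 2.36, 2.96 and 1.96. At chr2:3626066-3626430 it was 1158, 996 and 1767 with folds of 3.27, 3.08 and 3.66. At chr3:14199456-14199741, across the end of AT3G41768, also an 18S gene, it was 979, 1567 and 732 with folds of 2.59, 3.24 and 2.29. That peak shared most bases with the locus AT3G06355, of which it covered 33.3%, with its centre 24 bp past the start. Q values and folds thus ordered the peaks differently, since none of these 3 is among the 15 tallest found in all 3 lists. Ribosomal RNA genes stand in many near-identical copies, so the reads under those peaks cannot be placed on a single copy.

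Distance from the mark varied widely. The gap between an outside peak and the nearest H3K27me3 region had a median of 4814 bp, with quartiles of 1742 and 10505 bp and a range of 3 to 96746 bp. There were 55 peaks within 1 kb of a region, 8 of them within 200 bp, and 84 farther than 10 kb. All 7 peaks farther than 50 kb also lay more than 10 kb from a listed gene, the farthest at chr1:15297947-15298206 with folds of 3.00, 3.04 and 2.91. Peaks over genes were a median of 4.59 kb from the mark, and peaks far from genes 6.84 kb.

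The members just inside the rule were close in height to the peaks just beyond it. The 5 outside peaks nearest to a region were 3, 21, 37, 51 and 68 bp from it. Their mean folds were 1.75 at chr2:3619404-3620165, 1.80 at chr2:3201571-3201979, 2.06 at chr1:3755856-3756163, 1.93 near ADT2, which encodes an arogenate dehydratase of phenylalanine synthesis, and 1.91 near the gibberellin receptor gene GID1C. The 5 inside peaks that shared fewest bases with a region shared 23, 137, 151, 180 and 192 bp and had mean folds of 1.77, 2.13, 2.68, 1.75 and 1.71. The last of these lay at LHCB5, another light-harvesting gene.

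Outside peaks over a gene were centred toward its 3′ side. The gene that shared most bases with each of the 106 peaks was taken, and the peak centre was placed along it from start (0%) to end (100%). Peaks covered a median of 45.3% of that gene outside and 32.4% inside. A centre past the middle thus does not place the whole peak there. The median position was 61.5% outside and 35.7% inside, and the centre was past the middle for 75 of 106 outside peaks (70.8%) and 134 of 473 inside peaks (28.3%). In steps of 10% of the gene, 26 outside peaks (24.5%) were centred at 60 to 70% of the gene and 20 (18.9%) at 50 to 60%, against 27 (5.71%) and 40 (8.46%) of the inside peaks. A position past the middle was also more frequent outside than inside at each level of expression. Among genes in the top 10% by rosette FPKM, 23 of 30 outside centres and 4 of 16 inside centres were past the middle. Among genes in the lower 50%, the counts were 28 of 45 outside and 113 of 411 inside. TCH4, a touch-induced xyloglucan endotransglucosylase/hydrolase that remodels the cell wall, was centred at 65.3%, LHCB3 at 64.9%, LHCA4 at 64.0% and CAB1 at 61.0%.

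The outside peaks overlapped 124 genes in all, of which 118 are protein coding, 3 noncoding RNA, 2 long noncoding RNA and 1 ribosomal RNA. Several members share a target. SAMDC, RAP2.4 (an AP2/ERF transcription factor) and ACA1 (a calcium pump) had 2 peaks each. CAB1 and CAB2 are neighbouring near-identical genes for light-harvesting proteins of photosystem II, and the polyubiquitin genes UBQ10 and UBQ11 share sequence, so reads under their peaks may belong to either copy.

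Photosynthesis genes were the list with the largest share under these peaks. Of the 18 photosynthesis genes with a position (19 were listed), 8 were overlapped by an outside peak (44.4%) and 1, LHCB5, by an inside peak, while of all listed genes 0.571% were overlapped by an outside and 2.12% by an inside peak. The 8 are CAB1, CAB2, LHCB2.1, LHCB3 and LHCB4.1 of the photosystem II antenna, LHCA1 and LHCA4 of the photosystem I antenna, and RBCS1A, a small subunit of Rubisco. At CAB1 the fold was 2.14 in R1, 2.105 in R2 and 2.67 in R3 with 86.9% of the gene covered. At CAB2 it was 2.32, 2.56 and 3.67 with 95.8% covered. LHCB3 and LHCA4 were lower, at 1.73, 1.86 and 1.78 and at 1.92, 2.18 and 1.83. RBCS1A and LHCA1 were in R1 and R2 but not R3, with folds of 1.92 and 2.06 and of 1.77 and 1.98. A further light-harvesting gene that was not on the list, LHCB2.3, had folds of 2.66, 2.35 and 3.75.

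Early touch, wound and stress genes were the other group. Of the 22 with a position (26 were listed), 7 were overlapped by an outside peak (31.8%) and 2, WRKY40 and EXO, by an inside peak. TCH3, a calmodulin-like calcium sensor induced by touch, had folds of 2.51 in R1, 2.59 in R2 and 2.17 in R3. TCH4 had 2.79, 2.78 and 2.43, and SZF1, a zinc finger protein of the salt response, had 2.59, 2.56 and 2.33 with 95.8% of the gene covered. WRKY33, a transcription factor of defence against fungi, had 1.82, 1.98 and 1.91. STZ (ZAT10), a zinc finger repressor of the stress response, and DREB1A (CBF3), a transcription factor of cold acclimation, were in R1 and R2 but not R3, with folds of 1.86 and 2.37 and of 1.79 and 2.71. ERD15, described above, completes the 7.

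The remaining lists held few members or none. VRN2 was the sole PRC2 gene of 9 on its list. CUC1, a NAC transcription factor that sets organ boundaries, was the sole developmental Polycomb target of 16, with folds of 2.89 in R1 and 2.71 in R2 and no peak in R3, at chr3:5110699-5111546. CUC2 and KNAT1 of the same list lay under inside peaks. No outside peak overlapped any of 23 PIF and shade genes, 10 abscisic acid and cold genes, 19 clock genes, 6 heat shock genes, 12 hypoxia genes or 14 light signalling genes. By a gene start within 500 bp of the peak centre, VRN2 was the sole listed gene. These counts are over listed genes with a position in the rosette table. The lists were chosen with earlier results of these data known, so their counts are descriptions.

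VRN2 itself is a member, and it is a special case because the plants carry VRN2 sequence as a transgene. A peak of 2273 bp at chr4:9477409-9479681 covered 59.7% of the gene (chromosome 4, 9476069 to 9479878, plus strand), with folds of 1.48 in R2 and 1.32 in R3 and no peak in R1. A second lay just upstream of VRN2 at chr4:9475435-9476051, on the side of its neighbour AT4G16840, which is also among the genes overlapped by outside peaks. Its folds were 1.35, 1.15 and 1.15 in R1, R2 and R3, the lowest mean of all members. The part of transgene copies in these 2 peaks was not tested.

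Genes under outside peaks were expressed at higher levels than genes under inside peaks. Expression was taken as signal per kb of gene and ranked as a percentile over all genes with a value in each library. In the 3 Col-0 seedling libraries the median percentile of the 107 outside genes with a value was 65.5 to 79.7, and that of the 262 inside genes was 20.1 to 26.1. Between 38 and 43 of the 107 outside genes were in the top 10% of a library, against 18 to 20 of the 262 inside genes. In pif4-2 rosettes the median percentile by FPKM was 53.5 to 56.8 for 124 outside genes and 17.9 to 18.8 for 461 inside genes. H3K27me3 regions are known to cover weakly expressed genes, and the rule used them, so the difference is a description of how the peaks were divided.

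The outside genes were spread over the whole range and were not all active. Above 100 FPKM in both pif4-2 libraries were 19 of 124 outside genes (15.3%), 8 of 461 inside genes and 3.28% of all genes. Below 0.5 FPKM were 17 of 124 outside genes (13.7%), 209 of 461 inside genes (45.3%) and 16.3% of all genes. The seedling table lacked 17 of the 124 outside genes and 199 of the 461 inside genes. The 8 photosynthesis genes under peaks all lay in the top 10%, with 3599.6 to 16354 FPKM as pif4-2 means, but so did 9 of the 10 on the list without an outside peak. The 7 touch and stress genes under peaks had a median percentile of 79.5 in Col-0, against 44.3 for the 14 others with a value. DREB1A was near the floor, with 0, 0 and 11.3 signal in Col-0. Within the outside peaks, height and level were weakly ordered, with Spearman's rho of 0.06 to 0.27 between the fold in a list and expression over 64 to 103 peaks.

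**Figure D4:**
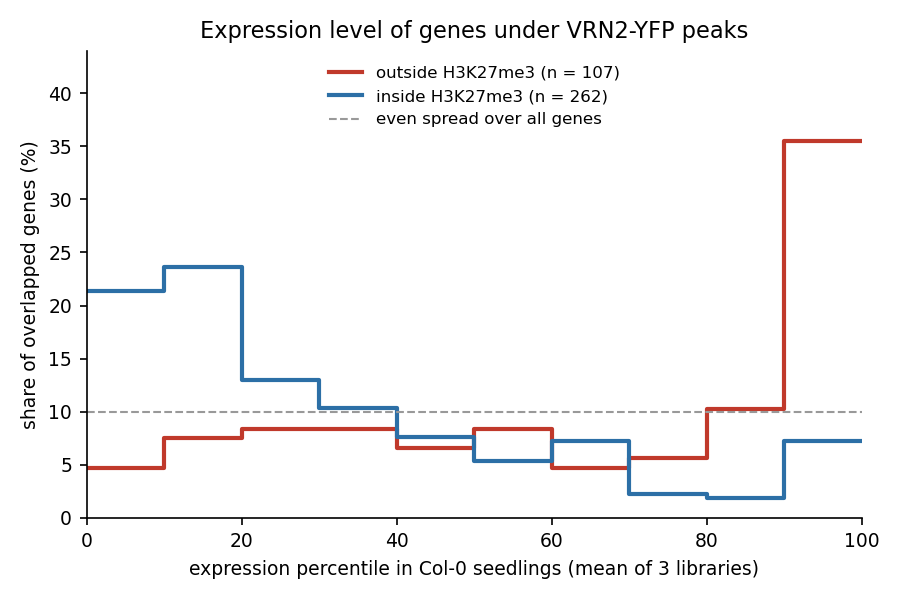
Share of overlapped genes (%) by expression percentile in Col-0 seedlings (signal per kb, mean percentile of 3 libraries), in steps of 10, for 107 genes under peaks outside and 262 under peaks inside H3K27me3. The dashed line marks the 10% of an even spread. The outside genes pile up in the highest step and the inside genes in the lower steps.

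The 30 genes with a start within 500 bp of an outside peak's centre were not the same set as the 124, but the sets share genes. VRN2, AT2G16586, YSL8, CYP81D1, GDU3, SAG21 and AT3G19030 are among the genes in both, so counts for the 2 sets are not independent. The median percentile of the 30 in Col-0 was 35.6 to 41.5 over the 23 with a value, 3 to 5 of them in the top 10%. The starts of the 30 lie near the peak, while the 124 are crossed anywhere along their length. The genes under the tall peaks at AT1G32920, ERD15, RAV2 and LHCB4.1 belong to the 124 alone. RNA results are therefore given for both. The assignment of 124 by overlap was chosen after the values were seen.

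Loss of VRN2 in seedlings was compared by setting vrn2-5 against Col-0. No member gene changed by limma at an adjusted p of 0.05, neither of the 22 tested by gene start nor of the 101 tested by overlap, where 0.0238% of all genes tested (4 of 16820) were called. In bulk tissue, fewer cells of a type and less RNA per cell cannot be told apart. At an unadjusted limma p of 0.05 there were 2 of 22 and 4 of 101, beside 2.85% of all genes tested. With edgeR on recovered reads 0 were called, where 0.0229% of all genes were. There, 2 of 22 and 4 of 104 had an unadjusted p under 0.05. VRN2, the gene that vrn2-5 alters, had the smallest p and is included in these counts. Its signal was 50.1, 45.0 and 50.3 in vrn2-5, against 116, 163 and 135 in Col-0, groups that did not overlap. With VRN2 counted, the groups did not overlap for 3 of the 22 member genes by start and 8 of the 101 by overlap. Of all genes tested, 5.5% did not. The log2 difference of VRN2 was −1.41 (SE 0.242) with a limma adjusted p of 0.293.

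WRKY33 and STZ were the next members in that comparison. WRKY33 had a signal of 189, 225 and 258 in vrn2-5, against 307, 443 and 282 in Col-0, a log2 difference of −0.59 (SE 0.18, limma adjusted p = 1). STZ had 43.4, 49.97 and 40.2 in vrn2-5, against 217, 81.4 and 67.8 in Col-0, a log2 difference of −1.18 (SE 0.51, limma adjusted p = 1). In neither gene did the groups overlap, and a single Col-0 library stood highest in each. The locus AT2G16586, which both rules assign, had 118, 165 and 147 in vrn2-5, against 214, 202 and 327 in Col-0. Next by gene start were AT3G48980 and GDU3, with log2 differences of 1.12 (SE 0.53) and −0.48 (SE 0.31). The tallest peaks were over genes with overlapping groups. AT1G32920 had 282, 305 and 251 in vrn2-5, against 457, 216 and 236 in Col-0. RAV2 had 1478, 1319 and 1636 in vrn2-5, against 2118, 1359.6 and 1769.7 in Col-0.

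Libraries labelled vrn2-5 prt6-1, set against those labelled prt6-1, gave 0 calls by limma among the same 22 and 101 member genes, with 0% called of 16820 genes. Unadjusted limma p-values were under 0.05 for 1 of 22 and 2 of 101, beside 1.14% of all genes tested. The 1 by start was VRN2, the gene that vrn2-5 alters, and it is counted in both. By edgeR on recovered reads there were 0 calls, and 1 of 22 and 3 of 104 at that level. VRN2 signal in libraries labelled vrn2-5 prt6-1 was 62.9, 36.7 and 76.8, against values in those labelled prt6-1 of 118, 135 and 130, a log2 difference of −1.11 (SE 0.242, limma adjusted p = 1), and the groups did not overlap. With VRN2 counted, that was so for 1 of 22 and 3 of 101 member genes, where it was so for 6.06% of all genes tested. Next after VRN2 by start were CYP81D1, AT2G01300 and AT3G03580, with log2 differences of 0.34 (SE 0.21), 0.57 (SE 0.37) and −0.75 (SE 0.55). By overlap they were AT1G27100 (−0.30, SE 0.13), TCH4 and AIF1 (0.74, SE 0.37). TCH4 signal in libraries labelled vrn2-5 prt6-1 was 989, 954 and 923, against values in those labelled prt6-1 of 1316, 2172 and 915, and the groups overlapped (log2 difference −0.53, SE 0.26, limma adjusted p = 1). The difference between the 2 vrn2-5 effects was tested as an interaction, a contrast added after the values were seen. No member was called there, where 0.00595% of all genes were. An unadjusted limma p under 0.05 was seen for 0 of 22 and 1 of 101, beside 1.34% of all genes tested.

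Libraries labelled prt6-1 were also set against Col-0, with PRT6 itself as given above. No member was called by limma, where 0.184% of all genes were called (31 of 16820). Unadjusted limma p-values were under 0.05 for 1 of 22 and 3 of 101, beside 4.14% of all genes tested. By edgeR on recovered reads there were 0 calls, with 0 of 22 and 2 of 104 at that level. The groups did not overlap for 2 of 22 and 4 of 101 member genes, where 9.55% of all genes tested did not. YSL8, which encodes a transporter of the yellow stripe family, had 34.3, 27.7 and 31.1 in libraries labelled prt6-1, against 0, 0 and 25.4 in Col-0. The 2 Col-0 libraries at 0 are the shallow ones, in which a read is worth 3.75 and 3.54 units of signal. AT4G38480 ranked level with YSL8 in those 2 libraries. Next by start were CYP81D1, AT4G38480 and ASPGB1, with log2 differences of −0.43 (SE 0.21), 1.73 (SE 0.90) and −0.78 (SE 0.54). By overlap they were AT5G65207 (0.62, SE 0.25), WRKY33 and AT3G06330 (2.49, SE 1.17). WRKY33 had 233, 257 and 256 in libraries labelled prt6-1, against 307, 443 and 282 in Col-0, a log2 difference of −0.44 (SE 0.18, limma adjusted p = 1). All 6 touch and stress members tested had negative log2 differences, with a median of −0.30, and 10 of the 14 others on the list were negative too. In the other comparisons the negative members were 3 of 6 in vrn2-5 against Col-0, 3 of 6 in vrn2-5 prt6-1 against prt6-1 and 2 of 6 in rosettes. This comparison and that of vrn2-5 share the Col-0 libraries.

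Rosettes gave 0 calls as well, but their result rests on 2 unlike libraries. With edgeR, vrn2-5 pif4-2 set against pif4-2 had no member called of 26 by gene start and 113 by overlap, where 0% of 18561 genes were called. Unadjusted edgeR p-values were under 0.05 for 5 of 26 and 6 of 113, VRN2 among both, beside 2.38% of all genes tested. DESeq2 called 0 of 30 and 0 of 124, with 8 and 9 at that level, where it called 0.032% of all genes. Without vrn2-5 pif4-2 replicate 1, 17 of 27 and 68 of 115 member genes were called, where 59.9% of all genes were. Without its replicate 2, 9 of 26 and 21 of 113 were called, where 9.49% of all genes were. Without either pif4-2 replicate in turn, 0 were called, where 0.0104% of all genes were. With a single library left in a group, that library is assumed to vary as the other group does.

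FPKM values did not overlap between the groups for 42 of 113 member genes by overlap and 15 of 26 by start. VRN2 is counted in both, and 36% of all genes tested did not overlap. VRN2 had 3.20 and 3.15 FPKM in vrn2-5 pif4-2, against 9.11 and 9.25 FPKM in pif4-2, a log2 difference of −1.54 (SE 0.273, edgeR adjusted p = 0.945). SAG21, a small late embryogenesis abundant protein of senescence and oxidative stress, had 13.5 and 12.1 FPKM in vrn2-5 pif4-2, against 2.67 and 4.75 FPKM in pif4-2, a log2 difference of 1.77 (SE 0.42, edgeR adjusted p = 0.945). The locus AT3G19030 had 60.8 and 207 FPKM in vrn2-5 pif4-2, against 30.8 and 44.8 FPKM in pif4-2. NUDT21, a Nudix hydrolase, had 5.34 and 5.56 FPKM in vrn2-5 pif4-2, against 10.1 and 9.53 FPKM in pif4-2. AT2G01010 had 1.16 and 1.37 FPKM in vrn2-5 pif4-2, against 4.37 and 4.70 FPKM in pif4-2, and its count is uncertain because of its many copies. In seedlings the SAG21 groups overlapped, with a signal of 1152, 2104 and 3989 in vrn2-5, against 1575, 1356 and 1969 in Col-0.

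**Figure D5:**
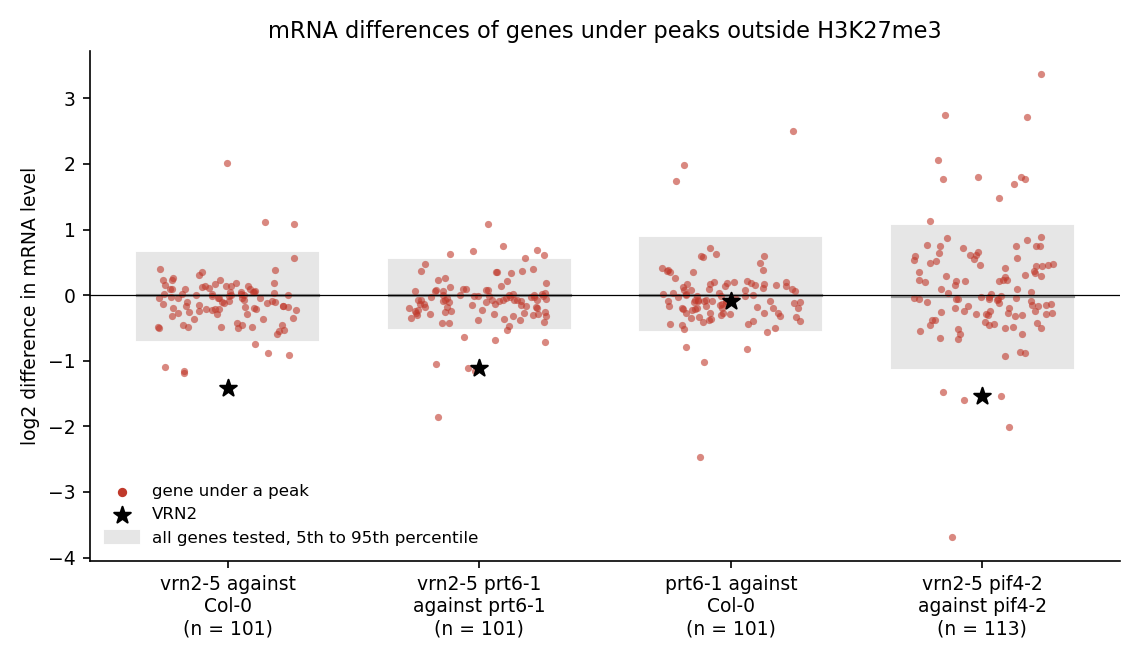
Log2 difference in mRNA level of each tested gene overlapped by a peak outside H3K27me3 (points; 101 genes in the 3 seedling comparisons, 113 in rosettes), with VRN2 as a star. Grey boxes span the 5th to 95th percentile of all genes tested and the grey line is their median. Most member genes lie within the boxes, VRN2 lies below them where vrn2-5 differs between the groups, and 10, 15, 8 and 16 member genes lie beyond a box.

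In each seedling comparison more of the overlapped genes had a negative than a positive log2 difference, and none passed the test. In vrn2-5 against Col-0, 40 of 101 had a positive log2 difference and the median was −0.09, beside 49.7% positive among all genes tested. In vrn2-5 prt6-1 against prt6-1 it was 34 of 101 with a median of −0.08, beside 50.1%. In prt6-1 against Col-0 it was 42 of 101 with a median of −0.07, beside 50.7%, and in rosettes 56 of 113 with a median of −0.02, beside 49.2%. By gene start, 7, 9 and 11 of 22 were positive in the seedling comparisons and 12 of 26 in rosettes. The medians are small beside the spread of all genes, whose 5th and 95th percentiles were −0.69 and 0.64 in vrn2-5 against Col-0. Photosynthesis genes under peaks had 0 calls of 8 in each comparison. CAB1, the most highly expressed of them, had a signal of 207371, 251108 and 260798 in vrn2-5, against 285369, 215162 and 180063 in Col-0, and the groups overlapped.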

How the data were processed

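The submitters' processing notes name BWA for chromatin and Bowtie for RNA, with TAIR10 as the build. They also name MACS2 for VRN2-YFP replicate 1 and MACS3 for replicate 2, no caller for replicate 3, SICER for an H3K27me3 sample and DESeq2 for an RNA sample, without settings. The deposited narrowPeak lists hold a fold (ratio over background) and a −log10 q per peak, per replicate. The deposited H3K27me3 tables hold a ratio of library A to B, which the header does not name, so they were used as positions alone: 4768, 6518 and 6357 regions, 37.2 Mb together. The deposited rosette table holds raw counts and FPKM by the authors. The deposited seedling table holds normalized signal; whole reads were recovered from it, with 100% of values up to 20 reads within 0.05 of a whole read. Its columns named WT and DM were read as Col-0 and vrn2-5 prt6-1. Chromosome accessions in the peak lists were matched to chromosomes 1 to 5.

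Seedlings were tested with limma 3.58.1 (trend) on log2(signal + 5) over the 12 libraries, genes with a mean of at least 10, so fold changes of low genes are understated. Rosettes were tested with edgeR 4.0.16 quasi-likelihood on counts with TMM scaling; its SE is the log2 difference divided by the square root of F. DESeq2 1.42.0 and edgeR on recovered reads were alternatives. P-values were adjusted by Benjamini-Hochberg over all genes, with 0.05 as the limit. In data simulated at these depths limma recovered 26% of 2-fold and 95% of 4-fold changes in vrn2-5 against Col-0 (16684 genes), and edgeR 17.2% and 100% in rosettes (18663 genes). The simulation gave every gene and library the same dispersion (spread beyond counting noise) of 0.05, which was not fitted to these libraries. These shares therefore do not tell how many real changes of that size the tests would find.

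Members and gene lists were chosen with earlier results of these data known. Named peaks are the 15 with the highest mean fold in all 3 lists, the 5 on each side of the rule and listed genes with a peak. Named RNA genes have the largest statistics in each comparison, by start and by overlap. Other named genes were chosen after their values were seen. Gene symbols come from the rosette table and biotypes from it too. No sequence is shown, since no genome was used here. No replicate pair agreed within sampling noise.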

Additional observations from a re-analysis of the deposited data

How the results depend on the processing

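The 313 members became 147 when a peak in all 3 lists was required and 195 at a −log10 q of at least 5. They were 327 when a peak with under 50% of its length in H3K27me3 also counted as outside, and 258 when none was allowed within 1 kb of a region. Without each VRN2-YFP replicate in turn there were 197 to 213, and without each H3K27me3 replicate 327 to 353. Members with a gene start within 500 bp were 9.58%, 25.2% within 1 kb, 7.48% with all 3 lists and 6.40 to 12.2% without each VRN2-YFP replicate. Members over a gene were 106, 55 with all 3 lists and 57 to 90 without each replicate, and those over 10 kb from a gene 136, 77 and 91 to 109. The share over a gene was 33.9%, and it was 28.1% without replicate 1, 35% without replicate 2 and 42.3% without replicate 3. The share over 10 kb away was 43.5%, and 53.7%, 47.2% and 42.7% in the same order.

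Member genes called in the 3 seedling comparisons were 0 under each alternative run: pseudocount 1, no filter, edgeR on recovered reads, wider or overlap assignment, and without each replicate. The labels do not pair the samples by replicate number, and not every pair's deviations correlated above 0.1. The values for replicates 1, 2 and 3 were 0.02, 0.19 and 0.33 in vrn2-5 against Col-0, −0.22, −0.22 and 0.50 in vrn2-5 prt6-1 against prt6-1, and 0.23, −0.01 and 0.56 in prt6-1 against Col-0. In rosettes the value was 0.04, which with 2 libraries per group is the same for both replicates by construction. Replicate 3 was above 0.1 in each seedling comparison, a hint from the data, not the design. With the replicate block member calls were 0 in each of the 4 comparisons, with 4, 0, 30 and 3 calls over all genes. In rosettes, leave-one-out gave 0 to 17 member genes by start and 0 to 68 by overlap. The median Col-0 percentile by gene start was 38.1, 35.1 without division by length and 74.3 for overlapped genes. The cause of these differences was not tested. Overlap assignment, place classes and the interaction were added after seeing the data. Motif searches were not run. The 6 shallow seedling libraries limit what low genes can show.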
